A study of Mus musculus with 4 samples.

Results

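The genes described here were the matrix metalloproteases of mouse and their inhibitors: 19 ADAMTS proteases, 5 ADAMTS-like glycoproteins, 19 MMPs and 4 TIMPs. They were chosen from these families, 47 of 21896 protein-coding genes, and the choice left out Mmp1a, Mmp1b, Mmp21, Mmp27, Thsd4 and Papln. A peak belonged to a gene when the authors' annotation gave it that gene's symbol. By this rule the genes held 199 of the 56695 chondrocyte peaks and 4 of the 1050 chondroprogenitor peaks. The measurement was 5-hydroxymethylcytosine (5hmC), the oxidised form of 5-methylcytosine made by the TET enzymes, which was captured chemically from genomic DNA and sequenced. The chondrocytes were ATDC5 cells, a single mouse chondrogenic line, grown with insulin, transferrin and selenite, with 1 library labelled day 19 and 1 labelled day 20. The chondroprogenitors were the same line at day 0 without that supplement, in 2 libraries. Both stages had basal medium with serum, glutamine, antibiotics and ascorbic acid.

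Each stage was deposited as 1 merged list of peaks with 10-fold enrichment, positions and symbols alone. Replicate spread therefore could not be measured, no difference between stages was tested, and read depth is unknown. The day 20 list was also far longer than the day 0 list and its peaks were wider, with medians of 591 and 134 bp, so a peak missing from the day 0 list is not a measured absence of 5hmC. Which cells carried a mark, and whether the cells had the markers of their labelled stage, cannot be read from peaks. Intervals are Wilson 95% intervals over genes and cover counting error only. Positions are those of build GRCm38, and a distance from a gene or its start is to the peak's midpoint unless an edge is named.

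Cartilage matrix is turned over by zinc metalloproteases. ADAMTS enzymes cut aggrecan and versican, trim the ends of procollagens or act on microfibrils, and the ADAMTS-like proteins share their matrix-binding modules but have no protease domain. MMPs cut collagens and most other matrix proteins, either in solution or from the cell membrane. TIMPs block MMPs, and TIMP3 also blocks aggrecanases. In growth cartilage, aggrecan and type II collagen are cleared as chondrocytes become hypertrophic, and loss of control over the same enzymes accompanies cartilage breakdown in osteoarthritis.

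The promoter sequences below are printed because 5hmC forms mainly at methylated CpG sites. They show promoters with many and with few CpGs, with a day 20 peak in the window, near it or farther away. RefSeq promoter sequences of GRCm38.p6, from 250 bases before to 50 bases after a gene's start, were at hand for 32 of the 47 genes. Adamts9 was the only one of the 32 with a day 20 peak inside this window. In its promoter (chr6:92943485-92943784, minus strand) the capitals mark the 99 bases that lay under that peak, with 10 of the window's 25 CpGs.
Adamts9: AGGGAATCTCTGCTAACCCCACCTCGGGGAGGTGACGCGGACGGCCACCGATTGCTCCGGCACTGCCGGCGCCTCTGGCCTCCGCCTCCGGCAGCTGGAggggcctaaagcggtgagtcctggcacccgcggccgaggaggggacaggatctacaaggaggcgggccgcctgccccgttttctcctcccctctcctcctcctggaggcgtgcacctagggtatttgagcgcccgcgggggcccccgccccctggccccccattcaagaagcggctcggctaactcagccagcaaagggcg

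In the next set capitals mark every CpG. Each of these genes had no day 20 peak in the window but one whose nearer edge lay within 2 kb of the start. The windows were chr5:89883285-89883584 for Adamts3, chr11:118355362-118355661 for Timp2 and chr10:75932453-75932752 for Mmp11, all on the minus strand, and they held 41, 25 and 19 CpGs in that order.
Adamts3: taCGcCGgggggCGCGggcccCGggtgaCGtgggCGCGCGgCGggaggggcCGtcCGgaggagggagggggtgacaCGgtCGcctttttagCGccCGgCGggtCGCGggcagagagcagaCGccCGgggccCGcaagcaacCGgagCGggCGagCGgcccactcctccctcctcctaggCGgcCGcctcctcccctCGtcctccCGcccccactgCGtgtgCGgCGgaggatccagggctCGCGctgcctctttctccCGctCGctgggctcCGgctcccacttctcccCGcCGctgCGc
Timp2: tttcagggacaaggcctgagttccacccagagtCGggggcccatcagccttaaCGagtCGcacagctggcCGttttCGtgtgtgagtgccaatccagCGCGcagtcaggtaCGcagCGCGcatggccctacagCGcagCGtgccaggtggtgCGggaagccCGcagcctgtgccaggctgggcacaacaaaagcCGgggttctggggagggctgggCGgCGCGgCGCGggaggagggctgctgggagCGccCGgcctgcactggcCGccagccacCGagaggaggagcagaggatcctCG
Mmp11: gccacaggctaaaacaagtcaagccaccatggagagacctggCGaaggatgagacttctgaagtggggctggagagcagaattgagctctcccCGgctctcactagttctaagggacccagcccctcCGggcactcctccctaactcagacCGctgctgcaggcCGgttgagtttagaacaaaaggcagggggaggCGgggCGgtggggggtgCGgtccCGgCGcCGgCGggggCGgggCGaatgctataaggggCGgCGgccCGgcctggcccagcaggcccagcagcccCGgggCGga

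The last set shows promoters of the MMP cluster on chromosome 9, which had no day 20 peak within 2 kb. Capitals mark the AP-1 motif TGACTCA or its reverse complement TGAGTCA, and the TATA motif TATAAA. The windows were chr9:7272264-7272563 for Mmp13, chr9:7445572-7445871 for Mmp3 and chr9:7502092-7502391 for Mmp10, all on the plus strand. They held 1, 1 and 2 CpGs in that order.
Mmp13: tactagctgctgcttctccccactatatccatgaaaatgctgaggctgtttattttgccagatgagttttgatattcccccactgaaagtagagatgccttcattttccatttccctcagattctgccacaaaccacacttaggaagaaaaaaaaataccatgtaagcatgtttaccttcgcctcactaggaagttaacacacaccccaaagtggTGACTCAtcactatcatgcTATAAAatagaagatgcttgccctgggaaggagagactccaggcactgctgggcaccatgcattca
Mmp3: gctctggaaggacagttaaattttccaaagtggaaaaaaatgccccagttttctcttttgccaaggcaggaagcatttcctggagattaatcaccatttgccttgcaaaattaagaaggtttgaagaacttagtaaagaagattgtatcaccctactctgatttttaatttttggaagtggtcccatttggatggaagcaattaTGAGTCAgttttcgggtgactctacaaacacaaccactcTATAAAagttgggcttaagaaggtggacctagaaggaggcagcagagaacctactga
Mmp10: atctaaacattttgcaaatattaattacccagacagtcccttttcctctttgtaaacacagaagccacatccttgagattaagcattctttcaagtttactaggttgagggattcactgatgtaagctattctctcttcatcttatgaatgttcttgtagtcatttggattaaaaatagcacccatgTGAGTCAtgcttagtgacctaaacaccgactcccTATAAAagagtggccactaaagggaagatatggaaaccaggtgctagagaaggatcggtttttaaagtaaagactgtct

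At day 20, 34 of the 47 genes carried at least 1 peak (72.3%, 58.2 to 83.1%), against 43.8% of all protein-coding genes. The families ran from ADAMTS with 16 of 19 genes (84.2%, 62.4 to 94.5%) and ADAMTS-like with 4 of 5 (80.0%, 37.6 to 96.4%) through TIMP with 3 of 4 (interval 30.1 to 95.4%) to MMP with 11 of 19 (57.9%, 36.3 to 76.9%). All 4 intervals overlap. When all protein-coding genes were split into 10 equal classes by length, the mean share of the 47 genes' classes was 54.4%. It was 67.3% for ADAMTS, 57.5% for ADAMTS-like, 46.2% for TIMP and 42.6% for MMP genes, each inside the family's interval. In number of peaks, ADAMTS genes held 122, ADAMTS-like genes 45, MMP genes 20 and TIMP genes 12. The median gene held 3 peaks in the first of these families, 3 in the second, 1 in MMP and 2.5 in TIMP, against 0 over all protein-coding genes. Of the 47 genes, 13 had 5 or more peaks, which 8.48% of all protein-coding genes had.

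**Figure D1:**
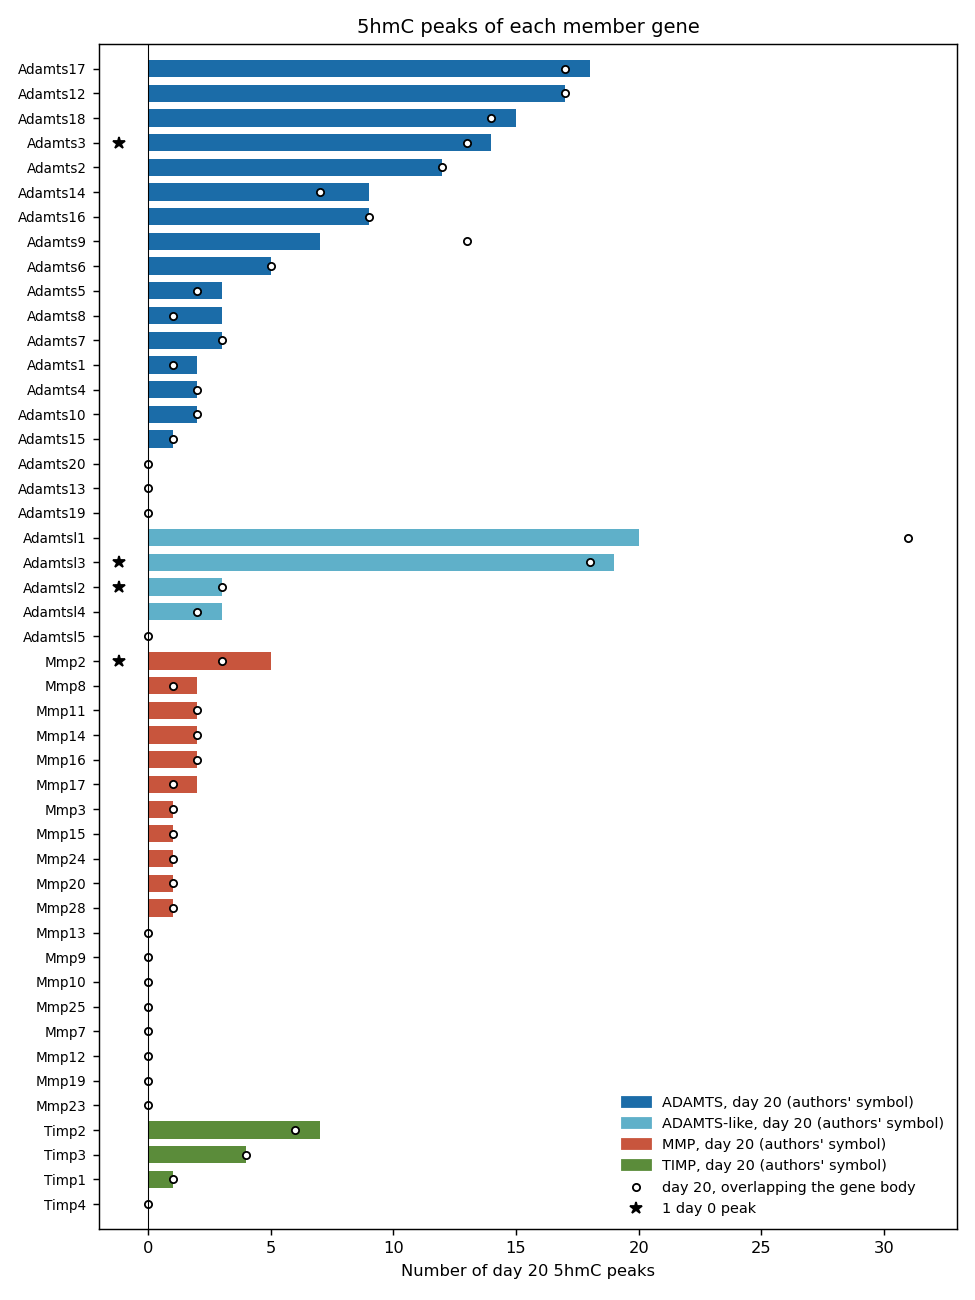
Number of day 20 5hmC peaks per gene, by the authors' symbol (bars, coloured by family) and by overlap with the annotated gene body (open circles), with a star for each gene that had 1 day 0 peak. ADAMTS and ADAMTS-like genes reach 18 and 20 peaks, no MMP passes 5, and 13 genes have none.

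At day 0, 4 of the 47 genes carried a peak, 1 each in Adamts3, Adamtsl2, Adamtsl3 and Mmp2, against 1.81% of all protein-coding genes. By overlap with the gene body the day 20 count was again 34 genes, against 40.6%, and the day 0 count again 4, against 1.76%. All 4 genes with a day 0 peak also carried day 20 peaks. Over all protein-coding genes the share with a day 0 peak was 7.90% in the longest of 10 equal classes of gene length, to which Adamts3 and Adamtsl3 belong. It was 1.64% in the class of Adamtsl2 and Mmp2.

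Gene length moved with these counts. ADAMTS genes had a median length of 114 kb, ADAMTS-like genes 29.6 kb, MMP genes 15.5 kb and TIMP genes 28.4 kb, against 17.1 kb over all protein-coding genes. Across the 47 genes, Spearman's rho between length and day 20 peaks was 0.66 and Pearson's r with log10 length was 0.75, against 0.55 and 0.48 across all protein-coding genes. Genes are not independent replicates, and all these points come from 1 list. Of genes of at least 100 kb, 11 of 13 members carried a day 20 peak (84.6%), close to the 79.9% of all such genes. Between 20 and 100 kb it was 15 of 16 members (93.8%), against 60.5%, with 6 of 6 MMP genes, 6 of 7 ADAMTS genes (85.7%), both TIMP genes and the 1 ADAMTS-like gene. Below 20 kb it was 8 of 18 (44.4%), against 25.8%, with 4 of 12 MMP genes (33.3%) and 4 of 6 of the other short genes (66.7%). The 25.8% includes much shorter genes, which seldom had a peak. In the 10 length classes the mean share was 33.8% for these 18 genes, 33.7% for the 12 MMP genes and 34.1% for the other 6. The short MMP genes were thus at the share of genes of their length.

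Within the 10 classes of gene length, 30 of the 47 genes held more day 20 peaks than the mean of their class (63.8%), which 32.2% of all protein-coding genes did. These were 15 of 19 ADAMTS, 4 of 5 ADAMTS-like, 8 of 19 MMP and 3 of 4 TIMP genes. The class means of the 19 ADAMTS genes add up to 80.3 peaks, against the 122 found. For the MMP genes they add up to 19.2, against 20 found, and for the TIMP genes to 3.86, against 12. For the ADAMTS-like genes they add up to 15.9, against 45. The longest class runs from 108438 to 2390387 bp, so length still differs within it. Adamtsl1, of 915 kb, held 20 peaks against a class mean of 6.92, but only 2.19 per 100 kb. By peaks per 100 kb of gene, TIMP genes had 10.4, ADAMTS genes 5.23, ADAMTS-like genes 3.62 and MMP genes 3.45, against 3.07 over all protein-coding genes.

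**Figure D2:**
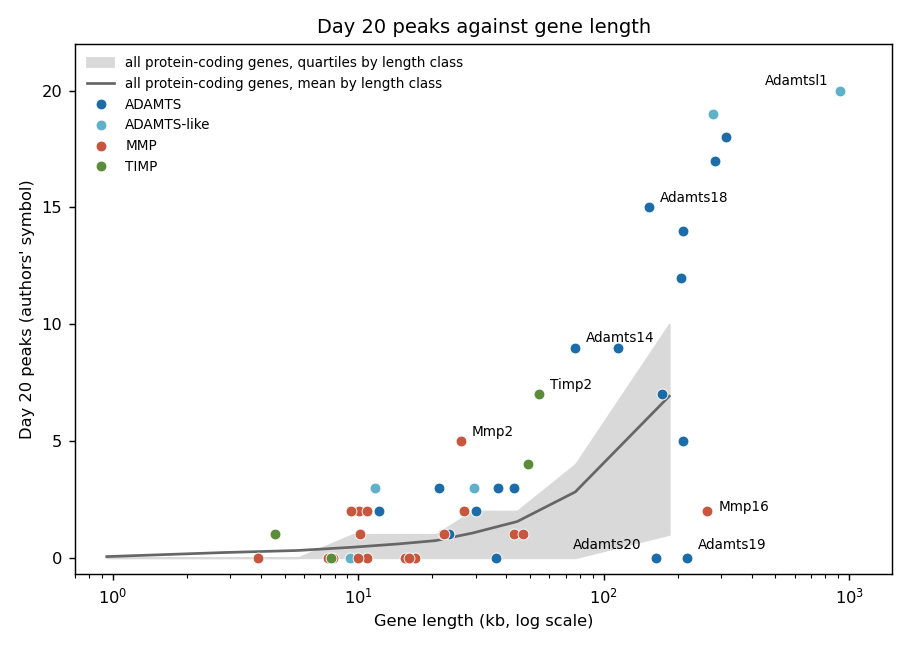
Day 20 peaks per gene (authors' symbol) against gene length in kb on a log scale, with each gene coloured by family. The grey line and band give the mean and quartiles of all protein-coding genes in 10 length classes. Adamts18, Adamts14, Timp2 and Mmp2 lie above the band, while Adamts19 and Adamts20 lie at 0 and Mmp16 at 2.

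Among the enzymes that cut aggrecan and versican, 6 of 7 carried day 20 peaks (85.7%), 18 in all. The share was 43.8% over all protein-coding genes and a mean of 54.9% in the length classes of these 7. Their class means add up to 17.9 peaks, close to the 18 found. None of the 7 carried a day 0 peak. With 1.81% of all protein-coding genes carrying one, that says nothing about so few genes. Adamts4 and Adamts5 encode the main aggrecanases of cartilage. Adamts4 covers 12.1 kb of chromosome 1 (171250129 to 171262267) and held 2 peaks. Its wider peak spanned 1855 bp (171250756 to 171252610), the widest of any ADAMTS peak. Adamts5, a gene of 43.0 kb on chromosome 16, held 3 peaks, of which 1 had its midpoint 610 bp outside it. All 3 stood at its higher end, between 85887672 and 85902120. The widest of them spanned 1565 bp (85898579 to 85900143).

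Adamts1, a protease that cuts versican and aggrecan, is the neighbour of Adamts5 on the same chromosome. It held 1 peak in its 9.29 kb gene body and 1 at 5109 bp upstream of its start. That upstream peak (85808016 to 85808429) was the only day 20 peak between both genes (85803114 to 85858156). No day 0 peak lay in the region from Adamts1 to Adamts5. Adamts8 and Adamts15 are also neighbours, on chromosome 9, and held 3 peaks and 1 peak. Only 1 of the peaks given to Adamts8 overlapped its gene body, and the farthest lay 7537 bp outside it, between both genes.

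Adamts9, a versican-cutting enzyme of 172 kb on chromosome 6, showed the largest gap between rules in this family. The authors' annotation gave it 7 peaks, and 13 overlapped its RefSeq gene body. Of the other 6, 4 had no symbol and 2 were given to 9530026P05Rik, a gene that overlaps the 5' end of Adamts9. Those 2 peaks lay at the 5' end of Adamts9, with midpoints at positions -377 and 1403 bp from its start, and the first is the one printed in capitals above. Of the 7 peaks that carry its symbol, 4 lay in the last of 3 equal parts of the gene. Adamts20, a versican-cutting relative of Adamts9, had no peak in its 164 kb or in the 100 kb on either side.

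All 3 procollagen N-propeptidases carried many day 20 peaks, 35 together. These enzymes remove the amino-terminal propeptide of fibrillar procollagens so that fibrils can form. Adamts3, of 210 kb on chromosome 5, held 14 peaks, Adamts2, of 205 kb on chromosome 11, held 12, and Adamts14, of 76.3 kb on chromosome 10, held 9. The mean of the length class was 6.92 peaks for the first 2 genes and 2.82 for Adamts14. Adamts2 and Adamts3 had a day 20 peak whose nearer edge lay within 2 kb of the start, and Adamts14 did not. The nearest midpoint lay 1910 bp after the start of Adamts3, 2280 bp after that of Adamts2 and 2404 bp upstream of Adamts14. In Adamts3 the widest peak spanned 1796 bp (89701385 to 89703180), far inside the gene, 181052 bp after its start.

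Adamts3 also carried a day 0 peak of 112 bp (89844383 to 89844494). It lay wholly inside a day 20 peak of 393 bp (89844239 to 89844631), 3.51 times as wide.

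Adamts7 and Adamts12, whose products bind and cut cartilage oligomeric matrix protein, carried 3 and 17 day 20 peaks. Adamts12 spans 284 kb on chromosome 15 (11064773 to 11349232), and all its peaks lay in the part nearer its start, between 11075622 and 11214224. None lay in the last of 3 equal parts of the gene, against 32.1% of peaks over all genes with a known strand. Of the pair linked to fibrillin microfibrils, Adamts6 held 5 peaks across 210 kb and Adamts10 held 2 across 30.1 kb. The Adamts6 peaks stood in 2 groups, 3 between 104390960 and 104398907 and 2 between 104492776 and 104494080.

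Among the less characterised ADAMTS genes, 3 of 4 carried 9 or more peaks, against a mean of 6.92 in their length class. Adamts17 on chromosome 7 held 18 peaks in 313 kb, Adamts18 on chromosome 8 held 15 in 152 kb, and Adamts16 on chromosome 13 held 9 in 114 kb. By length Adamts18 was the densest of these 3, with 9.85 peaks per 100 kb, against 7.89 in Adamts16 and 5.74 in Adamts17. Adamts19 on chromosome 18 had no peak in its 218 kb or in the 100 kb on either side. Adamts19 and Adamts20 were the only members with none in the gene and both flanks, which held for 10.5% of all protein-coding genes of at least 100 kb. Adamts13, which encodes the plasma protease that cuts von Willebrand factor, had none in its 36.3 kb, although 9 lay in its flanks.

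**Figure D3:**
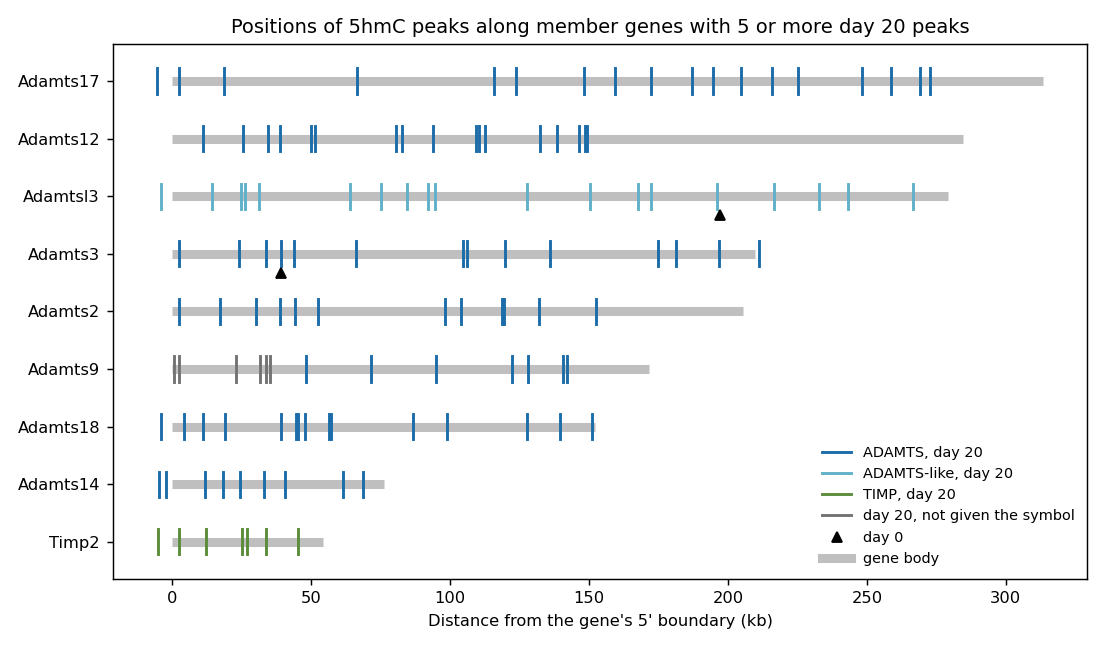
Positions of peaks along the 9 genes with a known strand and 5 or more day 20 peaks, in kb from the gene's 5' boundary. Vertical marks are day 20 peaks, grey marks those in Adamts9 that carry another symbol or none, triangles day 0 peaks and grey bars gene bodies. The peaks of Adamts12 stop near the middle of the gene, while those of Adamtsl3 and Adamts18 reach towards the other end.

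The ADAMTS-like genes held the highest count and the widest peak of all 47 genes. Adamtsl1 on chromosome 4 spans 915 kb and held 20 peaks by symbol, all between 86045851 and 86417060. A further 11 peaks overlapped its RefSeq gene body at lower coordinates, from 85559815 to 86031489, and had no symbol. By symbol it had 2.19 per 100 kb, the lowest density of the 4 marked ADAMTS-like genes. Adamtsl3 on chromosome 7 held 19 in 279 kb. Both products, also called punctins, are secreted matrix proteins. Adamtsl2 and Adamtsl4, whose products bind fibrillin, held 3 each in 29.6 and 11.7 kb. Adamtsl5 had none in its 9.24 kb.

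The widest peak spanned 2174 bp in Adamtsl3 (82530557 to 82532730) and contained the whole of that gene's day 0 peak of 160 bp (82532311 to 82532470). In Adamtsl2 the day 0 peak of 143 bp (27096368 to 27096510) was not shared. The nearest day 20 peak, of 1252 bp, began 1156 bp away from it. With Adamts3 and Mmp2, 3 of the 4 day 0 peaks of these genes overlapped a day 20 peak, and 520 of 1050 did over the whole day 0 list (49.5%).

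The MMP family had the lowest share of genes with a day 20 peak, 11 of 19, and each of the 11 held 1 to 5. With Mmp1a, Mmp1b, Mmp21 and Mmp27, which had none, it was 11 of 23 (47.8%), near the 43.8% of all protein-coding genes. Mmp2 and Mmp9 encode the gelatinases. Mmp2, of 26.1 kb on chromosome 8 (92827290 to 92853421), held 5 peaks, the most of any MMP, against a class mean of 1.06. Of these, 3 lay in the gene body and 2 in the 5 kb below it. The widest spanned 1933 bp (92833914 to 92835846), the widest of the family. Its day 0 peak of 116 bp (92850321 to 92850436) lay inside a day 20 peak of 882 bp. Mmp9, which is made at the front of cartilage resorption, had no peak by symbol or in its 15.5 kb. The closest stood 4350 bp away, from edge to edge, without a symbol.

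Membrane-type MMPs, which cut matrix at the cell surface, carried day 20 peaks in 5 of 6 genes (83.3%). The share was 43.8% over all protein-coding genes and a mean of 52.6% in the length classes of these 6. In number of peaks the 6 genes held 8, and their class means add up to 11.3. Mmp14, whose product activates pro-MMP2 and cuts collagen, held 2 in 10.9 kb, both in the gene body, of 1591 and 520 bp. The wider one (54435401 to 54436991) lay 4598 bp after the start. Mmp17 held 2, Mmp15 and Mmp24 held 1 each, and Mmp25 had none. Mmp16 is the longest MMP gene, with 264 kb on chromosome 4, and held 2, against a class mean of 6.92, with none in the 100 kb on either side.

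The MMPs outside that group carried day 20 peaks in 6 of 13 genes (46.2%). This was near the 43.8% of all protein-coding genes, and the mean of their length classes was 37.9%. Mmp11, the stromelysin 3 gene of 9.28 kb on chromosome 10, held 2 peaks of 995 and 924 bp that together covered 20.7% of the gene. The nearer one (75931319 to 75932313) had its midpoint 686 bp after the start, the shortest such distance among the peaks of MMP genes with a known strand. Mmp28 held 1. Mmp19 and Mmp23 had none.

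The remaining 7 MMP members form a cluster on chromosome 9, from Mmp13 at 7272514 to Mmp7 at 7699585. In these 427 kb there were 6 day 20 peaks and no day 0 peak. With 1050 peaks in the whole day 0 list, that lack says nothing about so short a region. Over all autosomes there were 2.28 day 20 peaks per 100 kb. Of the 7 genes, 3 carried a day 20 peak (42.9%), against a mean of 38.4% in their length classes. They held 4 peaks by symbol, and their class means add up to 4.40. The 7 genes were thus near genes of their length. The cluster also holds Mmp1b, Mmp1a and Mmp27, which are not among the members and had no day 20 peak. Per 100 kb, the whole region had fewer day 20 peaks than the autosomes. Whether the cluster stands apart from other regions was not tested. Mmp13, the collagenase that hypertrophic chondrocytes use on type II collagen, had no peak in its gene or within 5 kb. Neither had Mmp12, Mmp10 and Mmp7, which encode macrophage elastase, stromelysin 2 and matrilysin. Mmp3, encoding stromelysin 1, held 1 peak of 493 bp, 7887 bp after its start. Mmp8, the neutrophil collagenase gene, held 2 of 405 and 465 bp, and Mmp20, the enamelysin gene of teeth, 1 of 323 bp. All 4 of these peaks were narrower than the list median of 591 bp. The other 2 peaks of the cluster had no symbol.

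**Figure D4:**
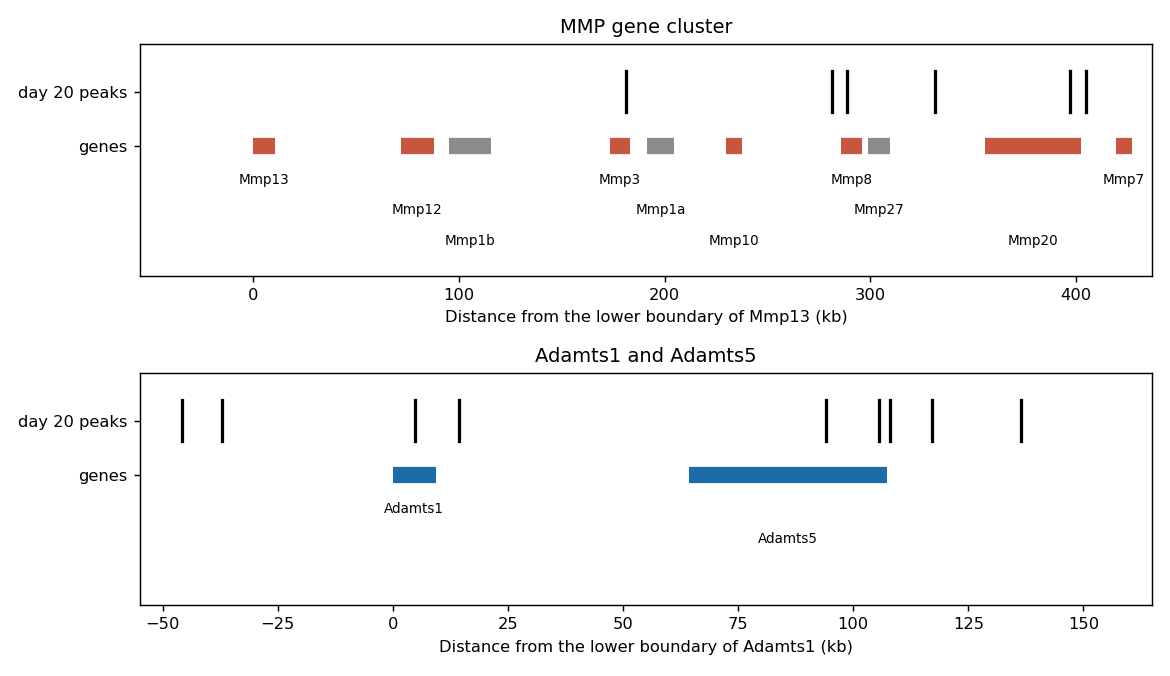
Day 20 peaks (black marks) and protein-coding genes (bars) in the MMP cluster of chromosome 9 and around Adamts1 and Adamts5, by distance in kb. Grey genes are not among the 47. The cluster has 6 peaks in 427 kb, and none lies in or beside Mmp13 or Mmp12. No day 0 peak lies in either region.

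The promoter windows of the cluster held a median of 2 CpGs per gene (range 0 to 7), counting the richest window of each gene. The 7 other MMP genes with a sequence had a median of 20 (10 to 44), the 10 ADAMTS genes 23.5 (2 to 44), the 4 ADAMTS-like genes 26.5 (8 to 46), the 4 TIMP genes 16 (2 to 25), and all promoter windows 7. Timp4 and Adamts13, with 2 CpGs each, were at the cluster's median. The AP-1 motif was found on either strand in 5 of the 7 cluster genes, Mmp13, Mmp12, Mmp3, Mmp10 and Mmp7, in no other member with a sequence, and in 1709 of all 32851 promoter windows. The TATA motif, on either strand, was found in all 7, in Adamts1 and Adamtsl2, and in 13.6% of all windows. A member counted if any of its windows had a match, while the background counts single windows. By window, AP-1 was found in 5 and TATA in 9 of the members' 35 windows. In Mmp13 the AP-1 match began at position -35 and TATAAA at -16 from the start, in Mmp3 at -46 and -7, and in Mmp10 at -63 and -29. A match describes these letters and does not show that a factor bound there.

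The motif ACCACA or its reverse complement TGTGGT, which RUNX factors recognise, was found in Mmp13, Mmp7, Mmp14 and Mmp23, and in 16.8% of all windows. Few members had a peak near their start. A day 20 peak overlapped the window in 1 of 32 genes, against 4.70% of all windows. Within 1 kb of a start it was 3 of 32, Adamts9, Adamtsl4 and Mmp11, against 12.7%. Within 2 kb it was 7 of 32, against 19.4%, with Adamts2, Adamts3, Adamtsl2 and Timp2 added. These counts are near those of all promoters and are not a result about these genes.

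The TIMPs are the inhibitors of these enzymes, and 3 of 4 carried day 20 peaks. The share was 43.8% over all protein-coding genes and a mean of 46.2% in the length classes of these 4. None carried a day 0 peak, and with 1.81% of all protein-coding genes carrying one, that says nothing about 4 genes. Timp2, which inhibits MMPs and takes part in the activation of pro-MMP2 by MMP14, covers 54.4 kb of chromosome 11 (118301061 to 118355411) and held 7 peaks, against a class mean of 1.55. Their widths were 1714, 1660, 1546, 1462, 754, 724 and 528 bp. The first 4 belonged to the widest 5.01% of the day 20 list, which began at 1299 bp. No other member had more than 1 such peak. The summed width of the 7 peaks came to 15.4% of the gene's length. The widest (118352072 to 118353785) lay 2483 bp after the start by its midpoint, and the outermost lay 5209 bp upstream.

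The other TIMP genes lie within synapsin genes, so a peak there lies in 2 genes at once. Timp3, whose product stays bound to the matrix and inhibits aggrecanases, held 4 peaks of 466 to 844 bp in 49.1 kb. All 4 also overlapped Syn3. By overlap rather than symbol, 35 day 20 peaks lay in the 450 kb of Syn3, with these 4 among them. Timp3 had 8.15 per 100 kb and the whole of Syn3, with the peaks of Timp3 included, had 7.77. Timp1, on the X chromosome, held 1 peak of 427 bp (20873022 to 20873448), which was also the only day 20 peak that overlapped Syn1. Timp4 had none in its 7.76 kb, and its host Syn2 held 4 elsewhere.

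In width, the day 20 peaks of these genes had a median of 631 bp (quartiles 492.5 and 872.5), against 591 bp (458 and 783.5) over the whole list. The medians were 617 bp in ADAMTS, 631 bp in ADAMTS-like, 674.5 bp in MMP and 739 bp in TIMP genes, and the families overlapped throughout. Of the 199 peaks, 15 were in the widest class of the list (7.54%).

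**Figure D5:**
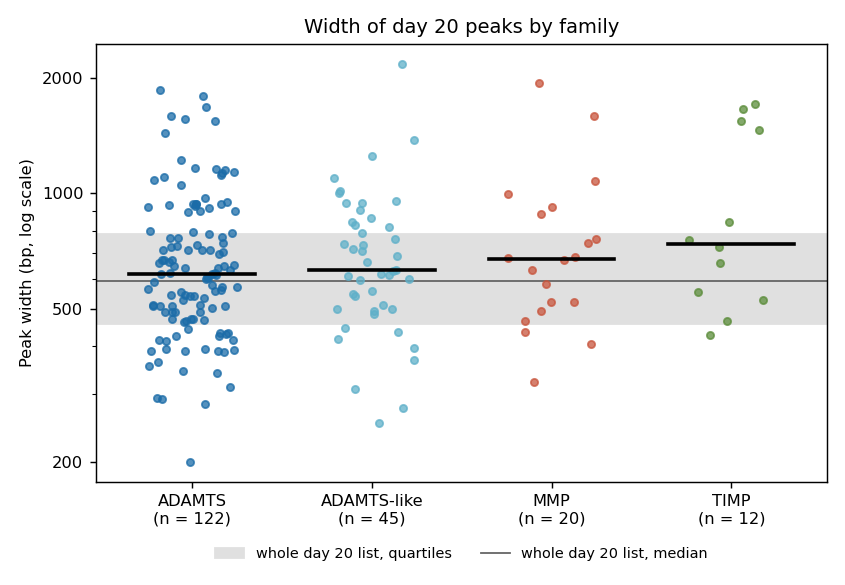
Width in bp, on a log scale, of each day 20 peak assigned to a gene of the 4 families, with black bars for family medians. The grey band and line are the quartiles and the median of the whole day 20 list. Of the 12 TIMP peaks, 4 stand above the rest at 1462 to 1714 bp, all in Timp2.

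By position, 182 of the 199 day 20 peaks had their midpoint inside the gene (91.5%), against 88.8% for all protein-coding genes. Of the 10 outside a gene with a known strand, 9 lay upstream, all within 5510 bp, and 1 lay downstream of Adamts3. This split depends on which outside peaks the authors' annotation gave a symbol, so it is not a result about position. A day 20 peak 2034 bp from Mmp20, from edge to edge, had no symbol. The same split over all genes was not computed. Inside the 22 genes with a known strand, 41.7% of 132 peaks fell in the first of 3 equal parts of the gene's length, and 29 of the 132 in the last. Over all such genes the shares were 35.2% in the first part and 32.1% in the last. The first part held 6 of the 12 peaks inside Adamts2, 7 of the 14 inside Adamts18 and 3 of the 17 inside Adamts17. Of the 199 peaks, 16 also overlapped another gene of any type, and 6 of these overlapped another protein-coding gene.

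Other genes of matrix turnover were read in the same way, against the 43.8% of all protein-coding genes with a day 20 peak and the 1.81% with a day 0 peak. Of 21 regulators, activators and clearance genes, 19 carried day 20 peaks (90.5%, 71.1 to 97.3%) and 1, Sox9, a day 0 peak. The mean share of their length classes was 56.3% at day 20. Runx2, a transcriptional activator of Mmp13, held 19 by symbol, Nfkb1 held 14 and Pcsk6, a proprotein convertase, held 10. A2m and Jun had none. Reck, a membrane inhibitor of MMPs, held 4 and Lrp1, the receptor that clears several of these proteases, held 7. Of 20 substrates, 18 carried day 20 peaks (90.0%, 69.9 to 97.2%) and 1, Vwf, a day 0 peak, with a mean share of 60.5% at day 20 in their length classes. Fbn1 held 14, Col5a1 13 and Vwf 9, while aggrecan's gene Acan and versican's gene Vcan held 4 each.

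Of 17 other zinc metalloproteases, 12 carried day 20 peaks (70.6%, 46.9 to 86.7%) and none a day 0 peak, with 17 in Adam12 and 9 each in Tll2 and Ece1. The mean share of their length classes was 67.5%, close to the 70.6% found. The median lengths of these 3 lists were 43.1, 38.4 and 92.8 kb, all above that of the MMP genes. Of 6 family genes outside the 47, 2 carried day 20 peaks (33.3%), against a mean of 46.1% in their length classes. Mmp1a, Mmp1b, Mmp21 and Mmp27 had none. Papln held 3 and Thsd4, an ADAMTS-like gene of 555 kb, held 34.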

How the data were processed

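The deposited data were 2 lists of peak positions in base pairs, each with a gene symbol and transcript accession. Per the file headers, each stage's samples were merged and the peaks listed were enriched 10-fold. The sources used here do not say relative to what, or whether the day 19 library was part of the merge. The submitters' processing notes name the tools MACS 1.4.2, BWA, cutadapt and FastQC, and GRCm38 and mm10 as builds, without saying what each did. The lists give positions without peak heights, and depth is unknown.

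The members and lists were chosen with earlier results of these data known, as were the length limits of 20 and 100 kb. Of the 56698 entries at day 20, 3 had no usable end position and were left out. Symbols were matched to RefSeq genes of GRCm38.p6 by transcript accession, then by symbol, for 99.6% of day 20 and 98.7% of day 0 peaks that had one. Strand and promoters came from the RefSeq promoter table and covered 32 members, so orientation is given for those alone. Overlap meant at least 1 bp. No p-value was computed, since each stage had 1 list. Genes were named by a rule: the 3 with the most day 20 peaks per family, those with a day 0 peak, those whose count differed by 3 or more between assignment rules, a fixed set of cartilage proteases and the TIMPs, and the widest peak of each family. Motifs, the promoters printed and other details were chosen after their values were seen. Assignment was tested on simulated data, where all 400 genes gave the planted number of peaks by each of 3 rules. Those genes stood apart from other protein-coding genes, and each peak planted in a gene carried that gene's symbol. The test therefore checks the counting and not the assignment of peaks in nested or overlapping genes. Computation used Python 3.11.15, numpy 2.4.6, pandas 2.3.3, scipy 1.17.1 and matplotlib 3.10.9. One overlap of a peak with a neighbouring gene is not reported here.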

Additional observations from a re-analysis of the deposited data

How the results depend on the processing

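By overlap with the gene body, 34 members carried a day 20 peak, as by symbol, and 35 did with 5 kb added on both sides, where Mmp9 joined. The 4 day 0 peaks and the 3 shared ones were unchanged in number by the gene rules and by a stricter overlap. By gene body, 13 members had fewer day 20 peaks, 2 had more (Adamts9 and Adamtsl1) and 32 had the same number. Peaks chosen by gene body had their midpoint inside the gene in 99.5%, which follows from that choice. With only peaks at least as wide as the list median, ADAMTS genes kept 66 peaks, ADAMTS-like genes 29, MMP genes 12 and all members 115, as the removal of narrow peaks implies. Genes with a day 20 peak were then 7 of 19 MMPs (36.8%), 2 of 4 TIMPs, 15 of 19 ADAMTS (78.9%), 4 of 5 ADAMTS-like and 28 of all 47 (59.6%). The share over all protein-coding genes was not computed for wide peaks or for the added 5 kb. Counts by those rules therefore have no background to be read against. No paired analysis was possible because each stage was deposited as 1 merged list. The unknown depth and the lack of replicates limit every stage comparison.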

Other observations

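Several day 20 peaks lay within 5 kb of a member without carrying its symbol or overlapping its gene body. There were 8 of these, beside Adamts4, Mmp9, Mmp15, Mmp20, Adamts15, Timp3, Adamts16 and Adamts6. The widest, of 1229 bp, lay 2449 bp from Mmp15, from edge to edge, (95348618 to 95349846 on chromosome 8) and was given to AA960436. The peak beside Timp3, of 1048 bp, lay 3909 bp from it and was given to its host Syn3.

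Of the 13 members without a day 20 peak by symbol, the flanks of 100 kb on either side held a median of 5 peaks. Timp4 had 10 in its flanks and Mmp13 had 1.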
